A study of Mus musculus with 10 samples.

Results

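The 10 genes Hspb1, Cryab, Hspb7, Hspb8, Bag3, Hspa1a, Hspa1b, Hspa8, Dnajb1 and Hsph1 encode heat shock chaperones and co-chaperones of heart muscle. Members were taken by symbol: every probe set annotated to 1 of these symbols alone was kept, and the older name Hsp105 was read as Hsph1. This gave 24 probe sets, of 22626 tested, and 10 genes, of 12393. Hspa8 had 4 probe sets, Cryab, Hspb7, Hspb8 and Hspa1b had 3 each, Hspb1, Dnajb1 and Hsph1 had 2 each, and Bag3 and Hspa1a had 1 each. RNA came from ventricles of untreated mice of 3 genotypes: alpha-TM175 (TM175, 3 arrays), alpha-TM180 (TM180, 4 arrays) and nontransgenic controls (NTG, 3 arrays). TM175 array 3, TM180 array 4 and NTG array 3 each carried a pool of 20 hearts, and the other 7 arrays carried 1 heart each. From background knowledge of these mice, both transgenes encode alpha-tropomyosin with a substitution linked to familial hypertrophic cardiomyopathy, are driven in cardiomyocytes by the cardiac alpha-myosin heavy chain promoter and add to the endogenous gene. TM175 is known as the milder and TM180 as the more severe model, and the series was set up around early hypertrophy. Age, sex, strain and the number of founder lines were not given in the sources used here, nor whether the pools held hearts that were also measured alone.

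Small heat shock proteins hold unfolding proteins in solution without using ATP. HSP70 proteins refold such clients in cycles of ATP hydrolysis that J-domain proteins start and exchange factors such as HSP110 and BAG proteins end. In cardiomyocytes BAG3 links HSP70 to HSPB8 and to the disposal of damaged Z disc proteins, alphaB-crystallin binds desmin and titin, and inherited changes in CRYAB or BAG3 cause cardiomyopathy in humans. Heat shock factor 1 drives the inducible members from promoter elements built of inverted GAA units.

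Upstream sequences are shown for the 3 members with the paired unit GAANNTTC in the 250 bases before their annotated start, since Hspa1a and Hspa1b, the stress-inducible HSP70 genes, gave the largest and most similar differences between arrays. The sequences are RefSeq's (GRCm38.p6), run 5′ to 3′ on the gene's strand, and have each GAANNTTC in capitals. The Hspa1a window is chr17:34972157-34972406 and the Hspa1b window chr17:34959239-34959488, both on the minus strand. For Hspb1, 60 bases around its 2 matches are shown, chr5:135887796-135887855 on the plus strand.
Hspa1a: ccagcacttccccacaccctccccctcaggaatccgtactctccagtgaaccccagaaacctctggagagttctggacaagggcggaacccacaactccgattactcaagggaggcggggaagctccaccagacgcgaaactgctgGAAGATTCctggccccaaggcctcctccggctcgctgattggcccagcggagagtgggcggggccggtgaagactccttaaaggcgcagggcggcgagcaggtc
Hspa1b: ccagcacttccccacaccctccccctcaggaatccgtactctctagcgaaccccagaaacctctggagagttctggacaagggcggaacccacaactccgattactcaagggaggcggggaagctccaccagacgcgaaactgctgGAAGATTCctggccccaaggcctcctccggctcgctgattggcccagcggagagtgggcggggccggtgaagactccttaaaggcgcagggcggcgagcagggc
Hspb1: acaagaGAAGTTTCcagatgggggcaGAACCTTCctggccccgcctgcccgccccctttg
The Hspa1a and Hspa1b windows were identical at 247 of 250 bases (98.8%). They differed by C44T, T47C and T249G, with the Hspa1a base first, positions counted from 1 at the 5′ end, and the Hspa1b base last. In both genes the GAANNTTC match began 104 bases before the start, and in Hspb1 the matches began 117 and 97 bases before it. The motif reads the same on both strands and occurred in the 250 upstream bases of 6.69% of 32851 promoter windows in the table.

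Promoter windows were matched by symbol for 8 of the 10 genes, all but Cryab and Hspa8. Hspb8, Bag3 and Hsph1 held GAANNTTC after the annotated start and not before it, within windows of 300 bases of which 7.86% of all held it. The 3-unit heat shock element is GAANNTTC with a further inverted unit at either end. It was searched on both strands with no mismatch allowed, so that elements with an imperfect unit were not counted. An exact match was found before the start of 0 of the 8 genes. Hsph1 held it, as TTCTGGAAAGTTC, after both of its annotated starts, and 0.603% of all 300-base windows held it. These matches describe the letters in a window and were not measured as binding sites.

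Array quality and labels were looked at first. Values are intensities on a linear scale, so that levels of different genes are not compared. The median intensity per array was 66.6 to 70.9. The first principal component placed the 3 pools at 30.1 to 39.9 and the 7 single hearts at -31.5 to 2.66, and each comparison is therefore also given with extract type (pool or single heart) in the model. Of 10 defining ventricular markers 8 had a settled level (Actc1 and Ckm did not and are left out), 0 of these passed the test in any comparison, and their summed intensity was 50166 to 51794 in TM175, 47820 to 53171 in TM180 and 51940 to 56542 in NTG arrays. Tpm1, from which the transgenes derive, read 15434 to 16517 in TM175 and 15587 to 17346 in TM180, against 11241 to 13205 in NTG arrays. TM175 array 1 stood apart from the other single hearts in sex-linked genes. It read 988 for Xist, against 99.5 to 136 in the other 6 single hearts, and 7.23 for the Y-linked Eif2s3y, against 44.7 to 60.8. The pools differed as well, with Xist at 414 in the TM175 pool and 394 in the TM180 pool, against 149 in the NTG pool. Eif2s3y read 38.3, 35.3 and 46.7 in these pools. For Nppa, which encodes the natriuretic peptide of stressed myocardium, TM175 array 1 read 521, where the other TM175 heart read 5478, the TM175 pool 3822 and the NTG arrays 635 to 906. Further reference genes of hypertrophy were split in this array. Nppb and Acta1 also read below every NTG array, at 952 and 733, against 1328 to 2210 and 1562 to 2356. Myh7, Postn and Col1a1 read above every NTG array, at 6319, 562 and 370, against 325 to 350, 173 to 227 and 203 to 349. For Myh7 it was the highest of all 10 arrays. The TM175 differences of the 10 genes are also given without TM175 array 1 and without TM175 array 2.

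Hspb1 encodes HSP27 (HSP25 in mice), a small heat shock protein that protects actin filaments. Its brightest probe set read 3980 and 7659 in the TM175 hearts and 5005 in the TM175 pool, 5284, 8094 and 5838 in the TM180 hearts and 6090 in the TM180 pool, and 5717 and 4685 in the NTG hearts and 5319 in the NTG pool. TM180 array 2 was the highest and TM175 array 1 the lowest, and the genotypes overlapped. The fold difference from NTG was 1.02 in TM175 (95% interval 0.726 to 1.44, limma adjusted p = 0.964) and 1.2 in TM180 (0.867 to 1.65, adjusted p = 0.878). The TM175 log2 difference of 0.03 was 0.245 without TM175 array 1 and -0.23 without TM175 array 2. The second probe set tracked the first across arrays (Pearson r of log2 values = 0.926 over the 10 arrays) and read 1763 to 4342 in TM175, 2935 to 5070 in TM180 and 2473 to 3331 in NTG arrays.

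Cryab encodes alphaB-crystallin, a major small heat shock protein of the myocyte. It read 4395, 5063 and 4052 in TM175 arrays 1 to 3, 5067, 5308, 5357 and 4454 in TM180 arrays 1 to 4, and 4375, 5217 and 4785 in NTG arrays 1 to 3. Its arrays differed by at most 1.32-fold, the narrowest range of the 10 brightest probe sets, and both pools of transgenic hearts lay below the NTG pool. The fold difference was 0.938 in TM175 (0.783 to 1.12, adjusted p = 0.758) and 1.05 in TM180 (0.889 to 1.25, adjusted p = 0.98). The TM175 log2 difference of -0.09 was -0.08 without TM175 array 1 and -0.18 without TM175 array 2. The other probe sets did not track it (r from -0.304 to 0.0695 among the 3). One of them, 1434369_a_at, read 2593 to 2839 in TM180, against 2516 to 2587 in NTG arrays, without overlap but by a fold of only 1.05. A dim one, 1435837_at, read 10.41 to 11.2 in TM175, against 8.95 to 10.37 in NTG arrays, also without overlap (fold 1.14, adjusted p = 0.492).

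Hspb7, which encodes the cardiovascular small heat shock protein that binds filamin C, read 2371, 3523 and 1871 in TM175, 3207, 3595, 2754 and 3284 in TM180, and 2245, 3184 and 3107 in NTG arrays. The TM175 pool was the lowest array and TM180 array 2 the highest, with overlap between all genotypes. The fold difference was 0.889 in TM175 (0.638 to 1.24, adjusted p = 0.758) and 1.14 in TM180 (0.833 to 1.55, adjusted p = 0.953). In TM175 the direction differed between extract types, with 1.08-fold in single hearts and 0.602-fold between the pools. The TM175 log2 difference of -0.17 was -0.13 without TM175 array 1 and -0.42 without TM175 array 2. Probe set 1434927_at read 1873 to 2990 in TM175, 2382 to 2750 in TM180 and 2041 to 2600 in NTG arrays. Its fold was 1.01 in TM175 (0.787 to 1.3) and 1.09 in TM180 (0.862 to 1.38). Probe set 1421289_at varied more, from 760 in TM180 array 3 to 2682 in the NTG pool, and its fold was 0.649 in TM175 (0.345 to 1.22) and 0.848 in TM180 (0.47 to 1.53).

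Hspb8 encodes HSP22, the small heat shock protein that works with BAG3. It read 1238, 1799 and 1899 in TM175, 2067, 2090, 1821 and 2101 in TM180, and 2276, 1648 and 1786 in NTG arrays. TM175 array 1 was the lowest and NTG array 1 the highest, and the fold difference was 0.858 in TM175 (0.661 to 1.11, adjusted p = 0.598) and 1.07 in TM180 (0.838 to 1.37, adjusted p = 0.987). The TM175 log2 difference of -0.22 was -0.03 without TM175 array 1 and -0.30 without TM175 array 2. Its probe set 1417014_at gave a larger TM175 difference, with 572, 942 and 477 in TM175, 975, 1113, 721 and 863 in TM180, and 1109, 904 and 1025 in NTG arrays. TM175 arrays 1 and 3 lay below every NTG array, while TM175 array 2 lay above NTG array 2. The log2 difference was -0.67 ± 0.23 SE (adjusted p = 0.285, and 0.115 with extract type), and the third probe set, 1456434_x_at, had 0.11 ± 0.16 SE in the same comparison. Both other probe sets of Hspb8 thus had a negative log2 difference in TM175, while that of the third was positive but smaller than its SE. Which transcripts each one detects was not tested.

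Bag3, the co-chaperone that joins HSP70 to small heat shock proteins, read 1083, 1815 and 1016 in TM175, 1521, 2080, 1594 and 1559 in TM180, and 1733, 1611 and 1499 in NTG arrays. TM175 arrays 1 and 3 were the lowest of all, whereas TM175 array 2 was above every NTG array. The fold difference was 0.781 in TM175 (0.571 to 1.07, adjusted p = 0.472) and 1.04 in TM180 (0.775 to 1.39, adjusted p = 0.998). Without TM175 array 2 the TM175 log2 difference was -0.62, against -0.36 with it, and without TM175 array 1 it was -0.25.

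Hspa1a and Hspa1b encode the stress-inducible HSP70 proteins. Hspa1a read 35.8, 223 and 66.3 in TM175, 44.6, 101, 49.9 and 81.3 in TM180, and 44.0, 44.6 and 48.6 in NTG arrays. The NTG arrays lay within 1.1-fold of each other, while TM175 array 2 was 6.22-fold above TM175 array 1 and TM180 array 2 was 2.26-fold above TM180 array 1. Hspa1b read 58.6, 299 and 172 in TM175, 70.4, 125, 70.7 and 148 in TM180, and 57.4, 64.4 and 80.8 in NTG arrays. TM175 array 2 was the highest for both genes, and TM180 array 2 and the pools of both transgenic lines came next. The genotypes overlapped through TM175 array 1, which read below the highest NTG array for both genes, through TM180 array 1 for both and through TM180 array 3 for Hspa1b.

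For Hspa1a the fold difference from NTG was 1.77 in TM175 (0.776 to 4.04, adjusted p = 0.527) and 1.43 in TM180 (0.661 to 3.09, adjusted p = 0.935). For Hspa1b it was 2.16 in TM175 (1 to 4.65, adjusted p = 0.38) and 1.47 in TM180 (0.717 to 3, adjusted p = 0.892). Much of the Hspa1a difference rests on 1 heart, and less of that of Hspa1b: without TM175 array 2 the log2 difference was 0.09 for Hspa1a, against 0.82 with it, and 0.59 for Hspa1b, against 1.11. Without TM175 array 1 these differences were 1.41 and 1.76, and neither passed (adjusted p = 0.42 and 0.285). Between the pools, each of 20 hearts, Hspa1a was 1.36-fold higher in TM175 and 1.67-fold higher in TM180 than in NTG. Hspa1b was 2.13-fold and 1.84-fold higher. These are single arrays without a test, and both transgenic pools also read higher than the NTG pool for Xist. The other 2 Hspa1b probe sets followed the brightest one closely (r from 0.954 to 0.984 among the 3), with folds of 1.9 and 2.39 in TM175. Hspa1a and Hspa1b are near-identical copies, so that signal from either gene may reach the probe sets of both, and their values are not independent.

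Hspa8 encodes HSC70, the constitutive HSP70 that also strips clathrin from vesicles. It read 2376, 3152 and 2829 in TM175, 2693, 3366, 3374 and 2980 in TM180, and 2850, 3106 and 3052 in NTG arrays, with TM175 array 1 lowest and overlap between all genotypes. The fold difference was 0.922 in TM175 (0.758 to 1.12, adjusted p = 0.714) and 1.03 in TM180 (0.858 to 1.24, adjusted p = 0.998). The TM175 log2 difference of -0.12 was -0.007 without TM175 array 1 and -0.21 without TM175 array 2. In 2 further probe sets TM175 array 1 was again the lowest array, at 1324 and 158, against 2098 to 2181 and 220 to 273 in NTG arrays. The dim 1431182_at followed none of the other 3 (r from -0.421 to -0.207).

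Dnajb1, which encodes the J-domain protein HSP40 that delivers clients to HSP70, had the lowest adjusted p of the members in both comparisons with NTG. It read 126, 152 and 165 in TM175, 131, 124, 118 and 158 in TM180, and 111, 92.2 and 124 in NTG arrays. All 3 TM175 arrays lay above all 3 NTG arrays, by a margin of 126 to 124 at the closest, and the TM180 arrays overlapped with NTG. The fold difference was 1.35 in TM175 (1.07 to 1.71, adjusted p = 0.28) and 1.22 in TM180 (0.98 to 1.51, adjusted p = 0.609). With extract type in the model the TM175 log2 difference was 0.44 ± 0.11 SE (adjusted p = 0.0635) and the TM180 difference 0.31 ± 0.10 SE (adjusted p = 0.152), neither of which passed. In single hearts and between pools the TM175 fold was 1.37 and 1.32, and the log2 difference was 0.545 without TM175 array 1 and 0.41 without TM175 array 2. The second probe set, 1416756_at, showed no such difference (log2 difference -0.03 ± 0.14 SE in TM175), and the 2 sets followed each other weakly (r = 0.278).

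Hsph1, the HSP110 that acts as an exchange factor of HSP70, read 299, 651 and 572 in TM175, 434, 541, 637 and 584 in TM180, and 503, 322 and 434 in NTG arrays. TM175 arrays 1 and 2 were the lowest and the highest of all 10. The fold difference was 1.16 in TM175 (0.766 to 1.77, adjusted p = 0.75) and 1.32 in TM180 (0.89 to 1.95, adjusted p = 0.772). The TM175 log2 difference of 0.22 was 0.56 without TM175 array 1 and 0.0023 without TM175 array 2. The second probe set had a log2 difference of -0.12 ± 0.30 SE in TM175 and 0.17 ± 0.28 SE in TM180.

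**Figure D1:**
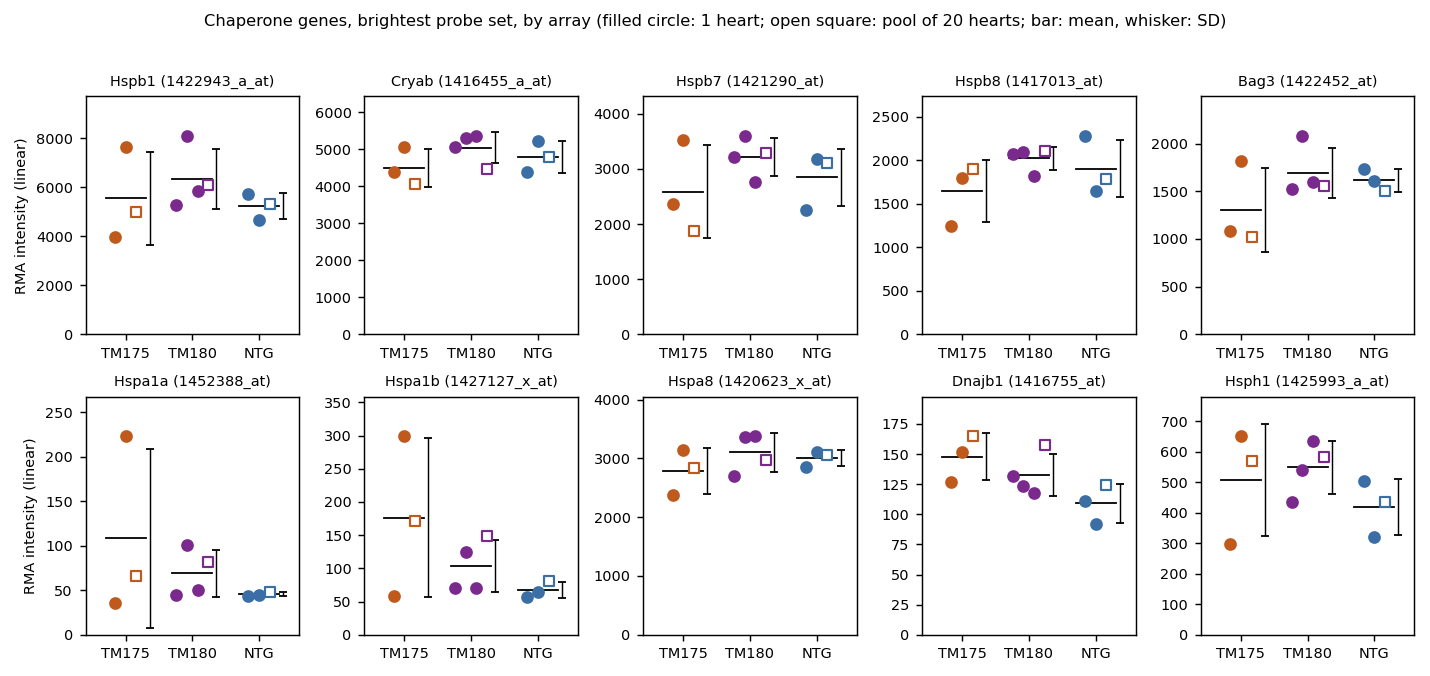
Intensity (linear RMA scale, vertical axis from 0) of the brightest probe set of each of the 10 genes in every array, with TM175, TM180 and NTG from left to right; filled circles are single hearts, open squares pools of 20 hearts, the bar is the mean and the whisker the SD. Hspa1a and Hspa1b are highest in TM175 array 2 (223 and 299), while Cryab stays between 4052 and 5357.

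The comparison of TM175 with NTG asked whether the chaperones differed in the milder model. In the brightest probe sets Hspa1a, Hspa1b, Dnajb1 and Hsph1 read higher in TM175 on average, by 1.16-fold to 2.16-fold. Bag3, Hspb8 and Hspb7 read lower, by folds of 0.781 to 0.889. None of the 10 genes passed the test, and the other probe sets of Dnajb1, Hsph1, Hspb7 and Hspb8 did not all share these directions. Limma called 0 of the 24 member probe sets, where it called 0.00884% of all probe sets, and with extract type again 0, where it called 0.862%. An unadjusted p under 0.05 was reached by 4 of 24 (Dnajb1, Hspb8 1417014_at and Hspa1b 1427127_x_at and 1452318_a_at), against 13% of all, and with extract type by 5 of 24, against 22.1% of all, so the share among the members was near the background. TM175 arrays lay above all NTG arrays in 2 of 24 probe sets (8.42% of all) and below them in 0 (8.11% of all). The direction was split, with 12 of 24 log2 differences above 0 (57.9% of all) and a median over the 10 genes of -0.03, against 0.04 over all probe sets. That median was 0.12 without TM175 array 1, -0.195 without TM175 array 2 and 0.27 with array weights, where 8 of 10 genes were above 0. Differences above 0.5 on the log2 scale occurred in 4 of 24, all of them Hspa1a or Hspa1b (0.566% of all), and below -0.5 in 2 of 24, Hspb7 1421289_at and Hspb8 1417014_at (2.46% of all). With array weights 5 member probe sets were called, among them Hspa1a, Hspa1b and Dnajb1, in a fit that called 23.7% of all probe sets and gave TM175 array 2 the largest weight (3.24).

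The comparison of TM180 with NTG asked the same of the more severe model. In the brightest probe sets all 10 genes read higher in TM180 on average, by log2 differences of 0.04 to 0.55 with a median of 0.22, against -0.01 over all probe sets. None of these differences passed: limma called 0 of 24 members, where it called 0.504% of all, and 0 with extract type, where it called 2.02%. An unadjusted p under 0.05 was reached by 0 of 24 (9.34% of all), with extract type by 1 of 24 (14.3% of all), and array weights called 0 (3.33% of all). Over all 24 probe sets 19 were above 0 (48.5% of all). Of the 24, 3 were above 0.5, all of them Hspa1a or Hspa1b (1.86% of all), and 0 were below -0.5 (1.18% of all). Arrays were higher without overlap in 1 of 24, Cryab 1434369_a_at (5.98% of all), and lower in 0 (4.19% of all). Without extract type, leaving out TM180 array 2 or 3 left 9 of 10 genes above 0. The median stayed between 0.13 and 0.27 when each of the 10 arrays was left out in turn. With extract type such fits had 8 to 10 genes above 0, fewest without NTG array 1, and medians of 0.13 to 0.30. Array weights gave 9 of 10 above 0. The median of 0.22 was 0.09 when the probe sets of a gene were averaged. Both lines were compared with the same NTG arrays, so their directions are not independent.

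Summed levels of markers of other cell types are given beside these comparisons. In these whole-tissue samples fewer cells of a type and less RNA per cell cannot be told apart. Of 8 fibroblast markers 3 were called higher in TM180 (Col1a1, Col1a2 and Pi16, calls lost in 3, 7 and 4 of 10 fits with 1 array left out), and their summed intensity was 7970 to 12121 in TM180, against 4527 to 6836 in NTG arrays. In TM175 it was 6264 to 9796, with 0 called. With extract type 5 of the 8 were called higher in TM180. The calls of Col1a1, Col1a2, Col3a1 and Pi16 were lost in 0 of 10 fits with 1 array left out, and that of Lum in 8. In TM175 that model called 1, Pi16 (adjusted p = 0.0427, lost in 9 of 10 fits). Endothelial markers summed to 2098 to 2260 in TM180, against 1872 to 2028 in NTG arrays, with 0 of 7 called, and smooth muscle and pericyte markers to 3641 to 4669, against 3241 to 3679, with 0 of 6 called. The 4 atrial markers summed to 6293 to 9802 in TM180, against 872 to 1258 in NTG arrays, and most of the TM180 sum was Nppa, at 5991 to 9127. Only 2 of the 4 had a log2 difference above 0 in TM180 against NTG, with Myl4 at -0.02 and Sln at -0.007. Nppa, which stressed ventricles also make, was 10.8-fold higher (adjusted p = 0.0483, a call lost in 7 of 10 fits with 1 array left out). With extract type in the model its adjusted p was 0.0115, a call lost in 3 of 10 such fits. The atrial light chain Myl7 read 89.3, 34.2, 455 and 337 in TM180, against 151, 39.8 and 37.2 in NTG arrays, so that TM180 arrays 3 and 4 lay above the rest (2.42-fold, adjusted p = 0.805). Red blood cell markers summed to 319 to 338 in TM175 and 209 to 231 in TM180, against 227 to 266 in NTG arrays, with 0 of 3 called. Most of each sum was Alas2, the heme synthesis enzyme of red cells, at 258.8 to 266.9 in TM175. The other markers were dim, with Hba-a1 at 21.55 to 30.05 and Slc4a1 at 27.69 to 40.65 over the 10 arrays. With extract type Alas2 fell by 0.70 on the log2 scale in TM180 against TM175 (adjusted p = 0.0388, lost in 8 of 10 fits with 1 array left out). Skeletal muscle markers summed to 280 to 290 in TM175, against 260 to 264 in NTG arrays, with 0 of 6 of settled level called. The part of these cells in the chaperone values was not tested.

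The comparison of TM180 with TM175 asked whether the models differed from each other. Limma called 0 of 24 members and 0% of all probe sets, and with extract type 0 of 24, where it called 0.0265%. An unadjusted p under 0.05 was reached by 2 of 24, Hspb8 1417014_at and Cryab 1435837_at (13.3% of all), and with extract type by 3 of 24 (25.4% of all). Array weights called 1 (10.3% of all). Of the 24 log2 differences 16 were above 0 (44.6% of all), 1 was above 0.5, Hspb8 1417014_at (1.28% of all), and 3 were below -0.5, all of them Hspa1b (0.274% of all). Arrays did not separate in any member, higher (6.22% of all) or lower (7.37% of all). Bag3, Hspb7 and Hspb8 read higher in TM180, by 1.33-fold (0.992 to 1.78, adjusted p = 0.386), 1.28-fold (0.937 to 1.74, adjusted p = 0.446) and 1.25-fold (0.976 to 1.59, adjusted p = 0.407). These log2 differences depended on single TM175 arrays. Bag3 was at 0.41, and at 0.30, 0.675 and 0.26 without TM175 array 1, 2 and 3. Hspb7 was at 0.35, and at 0.32, 0.60 and 0.145 without them. Hspb8 was at 0.32, and at 0.125, 0.395 and 0.43 without them. The other probe sets of Hspb7 were at 1.08-fold (1434927_at) and 1.31-fold (1421289_at) between the lines. Those of Hspb8 were at 1.04-fold (1456434_x_at) and 1.43-fold (1417014_at). Hspa1a read lower in TM180 than in TM175 by a log2 difference of -0.31 ± 0.50 SE, which turned to 0.42 without TM175 array 2, and Hspa1b by -0.56 ± 0.47 SE, which was -0.03 without that array. The intervals of Hspa1a (0.373 to 1.75) and Hspa1b (0.332 to 1.39) thus leave room for differences of more than 1.5-fold.

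**Figure D2:**
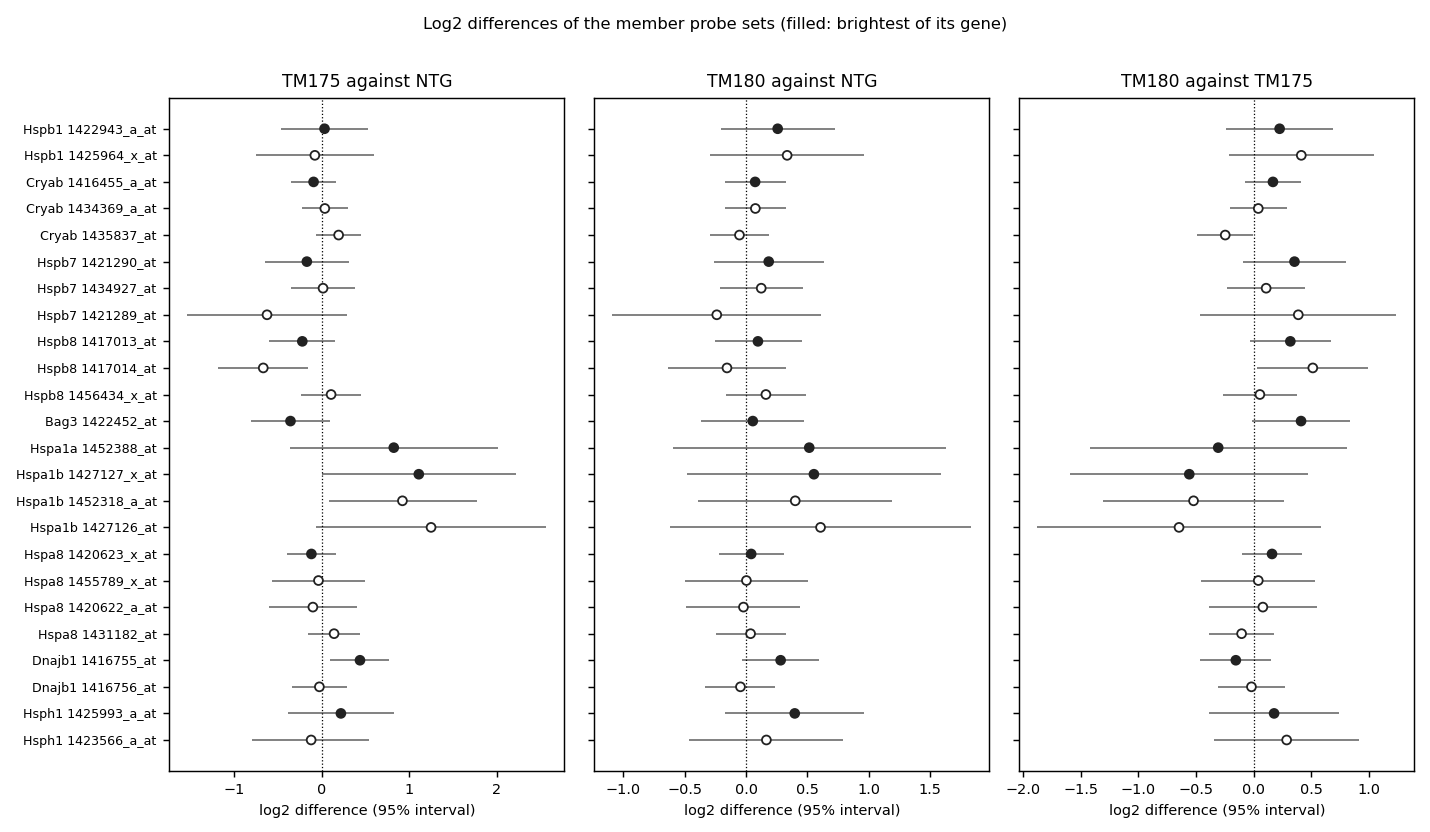
Log2 differences (horizontal axes, dots) with 95% intervals (lines) for the 24 member probe sets in TM175 against NTG, TM180 against NTG and TM180 against TM175; filled dots are the brightest probe set of a gene. The widest intervals belong to Hspa1a, Hspa1b and Hspb7 1421289_at, and 0 of 24 probe sets passed the adjusted test in any panel.

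The spread between arrays of the same genotype, pools included, was wide for these genes. The residual SD of the log2 intensity around the genotype means was 0.13 to 0.89 among the 24 probe sets, with a median of 0.31, against 0.17 over all probe sets and 0.18 over those of above-median intensity. It exceeded the median of all in 20 of 24 members and the 95th percentile of all, 0.40, in 7 of 24. These 7 comprised the 4 probe sets of Hspa1a and Hspa1b and 1 each of Hspb1, Hspb7 and Hsph1. Within TM175 the median SD of the members was 0.47, against 0.17 for all probe sets, within TM180 0.22, against 0.14, and within NTG 0.20, against 0.16. Without TM175 array 1 the median residual SD of the members was 0.23, with 17 of 24 above the median of all and 5 of 24 above its 95th percentile, and the TM175 median SD was 0.25. Without TM175 array 2 these were 0.22, 17, 4 and 0.32.

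Within TM175 the 2 single hearts lay far apart, and they were chosen for description after the values were seen. TM175 array 2 was the highest of the 10 arrays in 10 of 24 member probe sets (11.5% of all) and TM175 array 1 the lowest in 13 of 24 (14.1% of all). TM180 array 2 was the highest in 5 of 24 (7.73% of all). Counted by the brightest probe set of each gene, TM175 array 2 and TM180 array 2 were each the highest in 3 of 10 genes. TM175 array 1 was the lowest in 5 of 10. TM175 array 2 read above TM175 array 1 in 23 of 24 members, where 49.8% of all probe sets did, by at least 1.5-fold in 14 (1.53% of all) and at least 2-fold in 8 (0.296% of all). The ratio reached 7.4 in Hspa1b 1427126_at, was 2.18 in Hsph1, 1.92 in Hspb1 and 1.15 in Cryab, and was below 1 only in Hspa8 1431182_at (0.843). Against the highest NTG array, TM175 array 2 was 4.58-fold higher for Hspa1a and 3.7-fold higher for Hspa1b, but 1.34-fold for Hspb1 and 0.79-fold for Hspb8. As a description of arrays, the median member deviation from the NTG mean was -0.34 on the log2 scale in TM175 array 1, 0.41 in TM175 array 2 and 0.36 in TM180 array 2, and within -0.03 to 0.22 in the other transgenic arrays. The part of the sex-linked and Nppa differences of TM175 array 1 in this pattern was not tested.

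**Figure D3:**
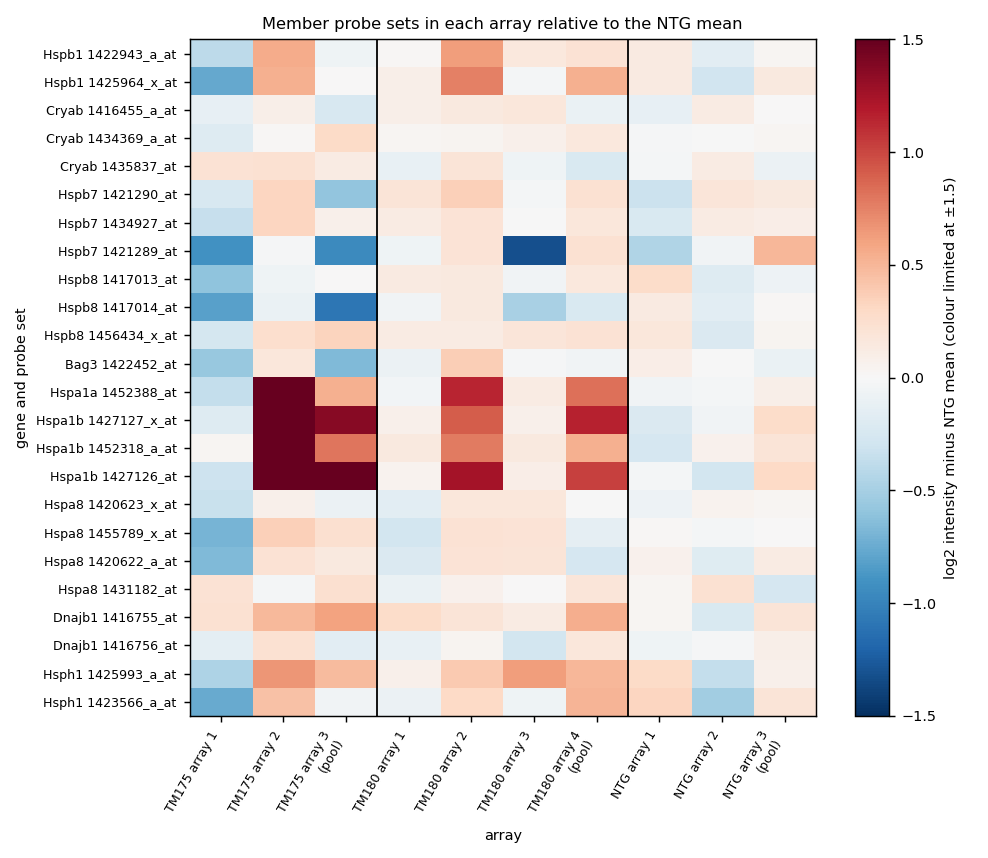
Log2 intensity minus the mean of the NTG arrays (colour, limited at 1.5 on either side) for the 24 member probe sets (rows) in the 10 arrays (columns), with TM175, TM180 and NTG from left to right. TM175 array 1 is the lowest array in 13 of 24 rows, and TM175 array 2 the highest in 10 of 24, with the darkest cells in Hspa1a and Hspa1b.

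Across arrays the members varied together to different degrees. After subtracting the mean of each extract type, 41 of the 45 pairs of genes had a Pearson r above 0 over the 10 arrays, with a median of 0.495. The highest was 0.968, between Hspa1a and Hspa1b, followed by 0.824 for Hspb1 with Hspa1a, 0.814 for Hspb1 with Bag3, 0.802 for Hspb1 with Hsph1 and 0.801 for Cryab with Hspb7. The pairs below 0 all involved Dnajb1, down to -0.239 with Cryab. Without TM175 arrays 1 and 2, 35 of 45 pairs were above 0 and the median was 0.387. The points share arrays and any difference in RNA between them, so these values describe the arrays only.

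Genes with the most similar profile were listed for the 3 members of largest SD, among 7326 candidate genes. For Hspa1a they were Ramp3 (r = 0.924), which encodes a receptor-modifying protein, Icam1 (0.916), which encodes an endothelial adhesion molecule, and Cd14 (0.903), which encodes a co-receptor for bacterial lipopolysaccharide. For Hspa1b they were Ramp3 (0.948), Icam1 (0.942) and Nrgn (0.934). For Hsph1 they were Trmt1 (0.945), Ier5 (0.936), an immediate early gene, and Arhgef5 (0.913). Without TM175 arrays 1 and 2 these r values were 0.761 to 0.833 for Hspa1a, 0.85 to 0.87 for Hspa1b and 0.894 to 0.938 for Hsph1. Icam1 read 86.3, 137 and 93.8 in TM175, 102, 114, 93.5 and 90.8 in TM180, and 90.6, 80.7 and 75.7 in NTG arrays. TM175 array 2 was its highest, which follows from its choice by likeness to Hspa1a and Hspa1b. Ier5 read 136, 267 and 230 in TM175, 221, 280, 269 and 278 in TM180, and 203, 154 and 198 in NTG arrays.

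The wider chaperone network held 67 listed genes in 8 lists, of which 58 were measured. Limma called 0 of 58 in each comparison. An unadjusted p under 0.05 was reached by 10 in TM175 against NTG (13% of all probe sets), 9 in TM180 against NTG (9.34%) and 13 in TM180 against TM175 (13.3%). Array weights called 11 in TM175 against NTG (23.7% of all), 0 in TM180 against NTG (3.33%) and 5 in TM180 against TM175 (10.3%). With extract type limma called 1, Hspa1l, an HSP70 gene best known from the testis. Hspa1l read 50.9, 64.3, 56.4 and 53.9 in TM180, against 42.6, 43.1 and 29.7 in NTG arrays, with no overlap. It rose by 0.54 ± 0.12 SE on the log2 scale in that model (adjusted p = 0.0367), a call lost in 7 of 10 fits with 1 array left out (adjusted p 0.0221 to 0.236), and its difference without extract type was 0.57 (adjusted p = 0.179). In TM175, 13 of 58 genes were above 0 with a median of -0.14 (57.9% and 0.04 over all probe sets), and the count was 25 and the median -0.05 without TM175 array 1. In TM180, 33 of 58 were above 0 with a median of 0.02 (48.5% and -0.01 over all probe sets). Between the lines 51 of 58 were higher in TM180 than in TM175 with a median of 0.16 (44.6% and -0.03 over all probe sets). Without TM175 array 1 these were 39 of 58 and 0.08. Renewed quantile normalization also moved the counts, to 25 of 58 in TM175 and 33 of 58 between the lines.

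By list, the named genes were those with the largest TM180 difference and the highest level, and values are TM180 minus NTG on the log2 scale. Of the small heat shock proteins 3 were measured, with Hspb3 at 0.31 and Hspb2 at 0.04. Of the 7 further HSP70 and HSP110 genes, Hspa9, the mitochondrial HSP70, was at -0.27 (adjusted p = 0.529). The 12 J-domain genes had a median of -0.02, with Dnajc2 at 0.42 (adjusted p = 0.231) and Dnajc8 at 0.02. Among 9 genes of HSP90 and its co-chaperones, Fkbp4, a co-chaperone of steroid receptors, was at -0.60: it read 519, 342, 350 and 362 in TM180, against 613, 519 and 642 in NTG arrays, with TM180 array 1 at the level of NTG array 2 (adjusted p = 0.157, and 0.0688 with extract type). The kinase co-chaperone Cdc37 was at -0.03 in TM180 and at -0.49 in TM175 (adjusted p = 0.227). This list had a median of 0.005 in TM180, with 5 of 9 genes above 0. Outside the naming rule, Hsp90aa1 was at 0.56 in TM180 (adjusted p = 0.254) and at 0.38 in TM175 (adjusted p = 0.41). Its arrays read 621 to 1029 in TM180 and 579 to 860 in TM175, against 494 to 573 in NTG.

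Of the 8 exchange and adaptor proteins of HSP70, Hspbp1 was at 0.15 and Bag1 at -0.07, and 0 of the 8 were above 0 in TM175, with a median of -0.16. The 11 chaperonin genes had a median of 0.06, with Cct7 at -0.21 and the mitochondrial Hspd1 at -0.18. Of the heat shock factors and their regulators 3 were measured, with Hsf4 at 0.08 and Hsbp1 at -0.05. Among 5 partners and clients of BAG3, Flnc, which encodes the Z disc protein filamin C, was at 0.61 (adjusted p = 0.354) and Des, which encodes desmin, at 0.50 (adjusted p = 0.291). Des read 4069, 4574, 3588 and 3870 in TM180, against 3177, 2911 and 2470 in NTG arrays, without overlap, and 1906, 3155 and 2472 in TM175 arrays. Des did not pass in TM180 against TM175 either, where its log2 difference was 0.71 (adjusted p = 0.302, and 0.0757 with extract type).

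**Figure D4:**
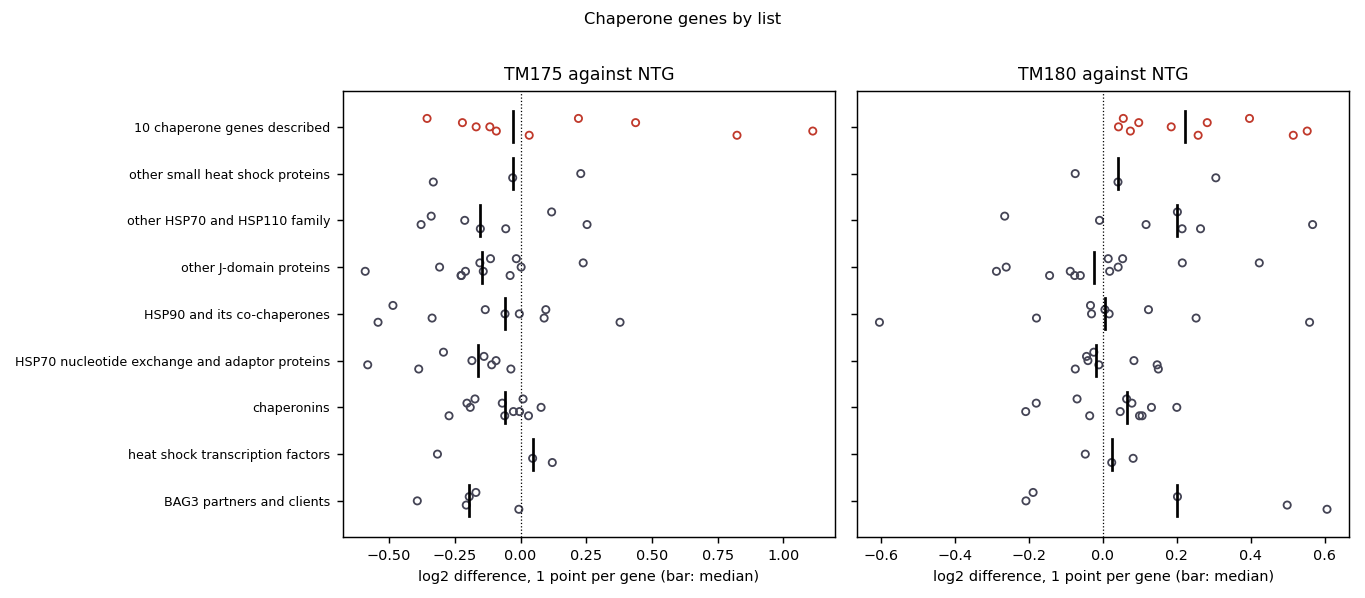
Log2 differences from NTG in TM175 (left) and TM180 (right), 1 point per gene, for the 10 genes described (top row) and the 8 wider lists of 58 measured genes; the bar is the median of the list. The 10 genes have medians of -0.03 in TM175 and 0.22 in TM180, and 0 genes of any row passed the adjusted test without extract type.

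Immediate early genes, which handling of tissue can also induce, were measured beside the chaperones. Of 10 genes 0 were called in any comparison, with medians of 0.24 in TM175 and 0.17 in TM180. With extract type 1 was called: Egr1, which encodes a growth-response transcription factor, rose in TM180 by 0.76 ± 0.13 SE on the log2 scale (adjusted p = 0.0126), with 211, 274, 230 and 311 in TM180, against 148, 154 and 156 in NTG arrays. That call was lost without TM180 array 4 or NTG array 3. Egr1 read 213, 157 and 248 in TM175 arrays. TM175 array 2, the highest for Hspa1a and Hspa1b, was the highest TM175 array in 3 of the 10 genes (Atf3, Ier3 and Myc) and the lowest in 1 (Egr1). Atf3, a stress-induced transcription factor, read 59.1, 75.9 and 57.6 in TM175, 53.1, 68.4, 52.2 and 55.9 in TM180, and 51.5, 48.1 and 45.1 in NTG arrays, with TM175 array 2 the highest of all 10. Fos read 62.3, 55.5 and 41.9 in TM175, 46.3, 77.8, 56.4 and 60.9 in TM180, and 47.1, 50.6 and 35.4 in NTG arrays. The part of handling in the chaperone values was not tested.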

How the data were processed

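Each extract of ventricular RNA was hybridised to 1 Affymetrix 3′ array. The deposited value of a probe set is its linear intensity, which the authors obtained with RMA, per the submitters' processing notes; the version was not given in the sources used here. From 1000 upwards the deposited intensities carry a point before the last 3 digits, so that they look like small decimals. This was undone from the digits and the other arrays of each probe set, for 7763 of 226900 values in 1048 probe sets. For 233 tested probe sets, none of them a member, the level was unsettled. Log2 of the deposited intensities was then taken. The 64 control probe sets among 22690 were not tested. Of the others, 20380 carried 1 symbol, 691 several and 1555 none in the platform annotation.

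Log2 values of all 10 arrays were fitted with limma 3.58.1 in R 4.3.3 (lmFit, eBayes; 1 mean per genotype). Tests were two-sided, adjusted by Benjamini-Hochberg over 22626 probe sets and called at an adjusted p under 0.05. Folds are ratios of geometric means with 95% intervals. The number of arrays limits the precision. Extract type as a covariate and the other alternatives are described in the closing section. The rest was computed in Python 3.11.15 (pandas 2.3.3, numpy 2.4.6) and drawn in matplotlib 3.10.9, and the fits were tested on simulated data.

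A gene is described by its brightest settled probe set. Genes with none (Actc1, Ckm and Myh4 among the marker lists) are left out. Values without TM175 array 1 or 2 for the spread and likeness, and the calls of list genes with 1 array left out, were added after seeing the data. For the wider lists the rule named called genes, or otherwise the largest TM180 difference and the highest level. Hsp90aa1 is given outside this rule. Members and lists were chosen with earlier results of these data known. Correlations of same-numbered arrays of different genotypes were -0.533 to 0.707, so the numbers were not taken as pairs.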

Additional observations from a re-analysis of the deposited data

Results flagged for a closer look

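Among the 24 member probe sets, 2 had a TM180 array far from the other 3, by Dixon's test at the 95% level (the gap to the nearest array over the group's range). Hspb8 1417013_at read 1821 in TM180 array 3, below the other TM180 arrays at 2067 to 2101 (gap over range 0.886). Bag3 1422452_at read 2080 in TM180 array 2, above the others at 1521 to 1594 (gap over range 0.85). Chance flags about 1 in 20 groups, and 24 groups were looked at. TM175 and NTG have 3 arrays each and were not looked at in this way.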

How the results depend on the processing

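The count of 0 member probe sets called held in each comparison under every alternative run but 2. Array weights called 5 of 24 in TM175 against NTG, 0 in TM180 against NTG and 1 in TM180 against TM175. Extract type as a covariate with TM175 array 2 left out, an alternative chosen after seeing the data, called 1 in TM175 against NTG, Hspb8 1417014_at. The cause was not tested. Leaving out single arrays, with or without that covariate, otherwise gave 0 in each comparison. Over all probe sets TM175 against NTG gave 2 calls, 195 with extract type, 5361 with array weights, 1 each with the replicate block, median centring, an adjusted p under 0.01 and log2 of intensity plus 16, 0 with only the groups compared, and 1 to 1247 with 1 array left out, the most when NTG array 2 was left out under the extract covariate. TM180 against NTG gave 114 calls, 456 with extract type, 44 with single hearts alone, 32 with the replicate block, 754 with array weights, 55 with only the groups compared, 11 at an adjusted p under 0.01, and 8 to 484 with 1 array left out. TM180 against TM175 gave 0 calls by limma, 6 with extract type, 2341 with array weights and 0 to 885 with 1 array left out. The replicate block, whose numbers do not pair the arrays, called 0 of 24 members in each comparison.

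No member difference passed without array weights among the brightest probe sets, and small ones changed sign. In TM175 against NTG, the log2 difference of Hspb1 was -0.012 with median centring and -0.24 to 0.27 with 1 array left out. Cryab was 0.105 with array weights and 0.0205 with renewed quantile normalization, and Hspb7 was 0.112 in single hearts, 0.36 with array weights and -0.42 to 0.083 with 1 array left out. There Hspa8 was 0.037 with array weights, 0.033 with renewed quantile normalization and -0.22 to 0.0022 with 1 array left out, and Hsph1 was -0.054 to 0.56. In TM180 against NTG, Hspb8 was -0.055 with array weights, and with 1 array left out Cryab was -0.040 to 0.14, Hspb7 -0.029 to 0.32, Bag3 -0.049 to 0.11 and Hspa8 -7.1e-05 to 0.11. In TM180 against TM175, array weights gave -0.11 for Hspb1 and -0.16 for Hsph1, and with 1 array left out Hspb1 was -0.029 to 0.51, Hspa1a -0.96 to 0.53, Hspa1b -1.21 to 0.18 and Hsph1 -0.17 to 0.48. The remaining settings kept the direction of each gene's brightest probe set. With 3 or 4 arrays a genotype, and 1 of them a pool, Hspa1a and Hspa1b intervals span several-fold, and a p that missed the threshold does not show that levels were equal.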
